A study of Mus musculus with 4 samples.

Results

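The genes described here are 45 ribosome biogenesis factors, the proteins that transcribe, modify, cut and assemble ribosomal RNA as the ribosomal subunits are made. They were taken by symbol from a list of names, and all 45 had a row among the 50600 gene identifiers counted. Each is listed once, and together they lie on 18 chromosomes. They fall into 8 roles: RNA polymerase I transcription, the box C/D and box H/ACA snoRNP cores, abundant nucleolar proteins, the PeBoW complex, the small subunit processome, late small subunit maturation and large subunit assembly.

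The building of ribosomes starts in the nucleolus. RNA polymerase I makes a long precursor RNA, small nucleolar RNAs (snoRNAs) in ribonucleoprotein particles (snoRNPs) guide its methylation and pseudouridylation, and assembly factors fold and cut it into the RNAs of the small and the large subunit. T cells that are activated enlarge their nucleoli and make ribosomes before they divide, and the transcription factor Myc is known to raise many of these genes.

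RNA was sequenced from T-helper 17 (Th17) primary cells of mouse strain C57BL/6NJ, CD4 T cells that make interleukin 17, in 4 libraries that are numbered as biological replicates 1 to 4 of 1 group. No treatment, genotype change or control group is given, the sex was not collected and the age is unknown. A tag of 2 hours stands in the headers of all files, with no word on what the hours were counted from. A single donor identifier is shared by all 4 libraries, although the libraries did not carry the same sex-linked transcripts. Ddx3y, on the Y chromosome, stood at 305, 213, 0.914 and 1.39 TPM in replicates 1 to 4, and Xist, the RNA of the inactive X chromosome, at 0.791, 0.602, 142 and 76.5 TPM. TPM is the count of a gene per exon length, scaled to a sum of 1e6 in each library. The labels do not say whether the replicates came from separate animals or cultures, so SDs and p-values cover only how these 4 libraries differ.

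Depth was 25847970 to 40652146 counted fragments per library. T cell genes were high, with Cd3e at 226 ± 18.8 TPM and Cd4 at 364 ± 35.1 TPM (SD, n = 4), while the Th17 genes listed next were lower. Il17a, the signature cytokine, stood at 5.65 ± 1.20 TPM, Il17f at 12.4 ± 5.91 TPM, Rora at 9.82 ± 2.49 TPM, Ccr6 at 0.207 TPM and Il23r at 0.132 TPM. Il17f varied between libraries, from 7.04 to 20.8 TPM (adjusted p 0.017 in edgeR). Markers of other cells summed to 0.392 to 1.88 TPM per library for 5 B cell genes (1 at 0 in all libraries) and 0.165 to 0.698 TPM for 6 myeloid genes (1 at 0). The 5 NK and CD8 genes summed to 24.2 to 34.2 TPM, nearly all from Cd8b1 (20.9 to 31.2 TPM), while Cd8a reached at most 0.405 TPM, Gzmb at most 4.70 TPM, and Klrb1c and Ncr1 were at 0. Of the erythroid genes, 4 of 4 were at 0.

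Promoter sequences of 40 of the 45 factors were matched by symbol in RefSeq windows of build GRCm38.p6, each running from 250 bases before the annotated start to 50 bases after it. Npm1, Bop1, Fbl, Rrp12 and Rrs1 had no entry. The sequences below are the 120 bases that end just before the start, 5′ to 3′ on the strand of the gene. Polr1b and Nop16 are shown because they are the factors whose level varied most between libraries. Nop2, Rrn3 and Utp18 are shown because they hold the E-box CACGTG, the site that Myc and its relatives bind, in this stretch. Capitals mark the E-box CACGTG, the ETS core CCGGAAG on either strand, and the longest run of letters that the stretches of Polr1b and Nop16 share. Polr1b is from chr2:129100876-129100995, plus strand, Nop16 from chr13:54590075-54590194, minus strand, Nop2 from chr6:125131763-125131882, plus strand, Rrn3 from chr16:13780579-13780698, plus strand, and Utp18 from chr11:93885767-93885886, minus strand.
Polr1b: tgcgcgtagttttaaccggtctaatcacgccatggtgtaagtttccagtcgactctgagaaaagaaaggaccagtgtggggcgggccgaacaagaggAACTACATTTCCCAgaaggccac
Nop16: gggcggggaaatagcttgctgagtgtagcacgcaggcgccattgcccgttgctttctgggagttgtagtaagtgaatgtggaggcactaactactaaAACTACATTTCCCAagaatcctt
Nop2: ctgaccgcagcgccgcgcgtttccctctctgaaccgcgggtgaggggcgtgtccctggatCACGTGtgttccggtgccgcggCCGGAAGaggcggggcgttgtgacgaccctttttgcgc
Rrn3: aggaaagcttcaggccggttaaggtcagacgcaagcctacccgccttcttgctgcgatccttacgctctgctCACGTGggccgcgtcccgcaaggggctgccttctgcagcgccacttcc
Utp18: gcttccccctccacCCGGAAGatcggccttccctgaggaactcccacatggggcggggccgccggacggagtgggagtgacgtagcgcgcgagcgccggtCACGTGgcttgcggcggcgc

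The E-box was found in 9 of the 40 windows (22.5%), against 8.09% of all 16465 windows of the same length and 11.4% of 4312 windows of other protein coding genes with a mean of at least 20 TPM. The ETS core, bound by factors of the Ets family, was found in 17 of 40 (42.5%), against 12.5% and 24.4% of these sets. In 6 windows both stood together, and 20 held at least 1 of them. Both motifs hold the letters CG. The median ratio of observed to expected CG was 0.860 in the windows of the factors. It was 0.602 in all windows and 0.825 in those of at least 20 TPM. What this difference adds to the shares was not tested. The E-box lay before the start in 3 of the 9 windows (Nop2, Rrn3 and Utp18) and after it in the other 6 (Ltv1, Pes1, Tsr1, Utp20, Utp4 and Wdr43). Polr1b and Nop16 held neither motif. Their stretches shared a run of 14 letters close to the start, AACTACATTTCCCA, which no other matched factor held and which 0.34% of all windows and 0.417% of those of at least 20 TPM held. This run was defined from those promoters after they had been seen. The GC box GGGCGG was found in 67.5% of the windows, against 69.0% at 20 TPM or more, the letters CCAAT in 35% against 37.4%, and TATAAA in 7.5% against 7.07%. All motifs were read on both strands, and a match is a description of letters, not of binding.

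The factors were abundant. Of the 45, 43 had a mean of at least 10 TPM, which 31.8% of 21764 protein coding genes reached, and 25 had at least 100 TPM, which 7.61% reached. The median of the 45 means was 109 TPM, the lowest factor was Wdr12 at 4.99 TPM and the highest Npm1 at 1008 TPM. Together they took 0.931%, 0.756%, 0.779% and 0.932% of the counts in replicates 1 to 4, a mean of 0.850 ± 0.0953% (SD, n = 4). Replicates 1 and 4 thus held the larger shares, above both other libraries. Counts behind a factor ran from 307 for Wdr74 to 188987 for Ncl over the 4 libraries.

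**Figure D1:**
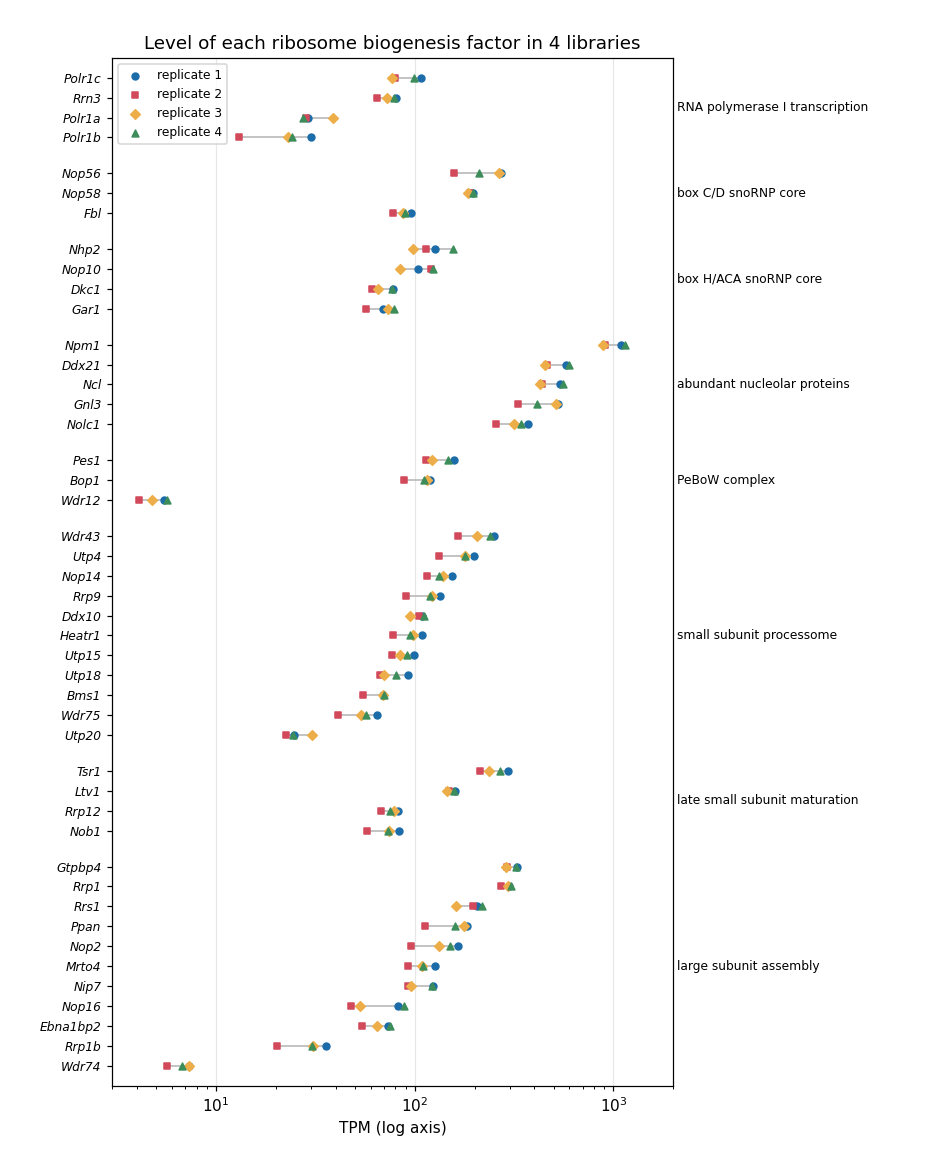
TPM (log axis) of each of the 45 factors in each of the 4 libraries, 1 point per library with a line from the lowest to the highest, ordered by role and mean level. The 5 abundant nucleolar proteins lie highest with the union exon lengths used here, Wdr12 and Wdr74 lie below 10 TPM, and the squares of replicate 2 are the leftmost point of most factors.

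Levels of 9 factors rest on gene models of which more than 10% of the distinct stretches of 31 bases also occur in transcripts of another gene. Fragments that align to several places were not counted, so the levels of these 9 may be uncertain: Pes1 (34.8%), Tsr1 (33.2%), Npm1 (29.4%), Nop56 (22.4%), Fbl (21.8%), Mrto4 (19.1%), Rrs1 (15.8%), Wdr12 (12.4%) and Nip7 (11.2%). Stretches were matched on either strand, so a gene on the opposite strand of the same place counts as sharing, although its fragments need not align to several places. For Tsr1 the sharing genes were Srr and Gm20426, and whether they lie at its own place was not checked. Wdr74 is uncertain for another reason: 90.7% of its exon bases overlap another gene model on the same strand, where fragments were counted for neither gene.

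Among the factors of RNA polymerase I transcription, Polr1c stood highest and Polr1b lowest. Polr1c (chromosome 17, 46243920 to 46248054 in mm10), a subunit shared with RNA polymerase III, had 108, 79.8, 76.7 and 99.5 TPM in replicates 1 to 4, a mean of 90.9 ± 15.1 TPM (SD, n = 4). Rrn3, the factor that brings the polymerase to its promoter, had a mean of 74.1 ± 7.23 TPM. Polr1a, which encodes the largest subunit, had 29.2, 28.5, 38.6 and 27.5 TPM, a mean of 30.9 ± 5.14. Replicate 3 alone stood apart for Polr1a, and the other libraries lay close together. Polr1b (chromosome 2, 129100995 to 129126594), the second largest subunit, had 30.0, 13.1, 22.9 and 24.1 TPM, a mean of 22.5 ± 7.02. Replicate 2 was the low library for Polr1b. Polr1b lay below Polr1c in 4 of 4 libraries, with a difference of -2.01 ± 0.36 on the log2(TPM + 1) scale. Polr1a lay above Polr1b in 3 of 4 libraries, by 0.48 ± 0.50, a difference smaller than its spread (exact permutation test, flipping the sign of each library's difference, two-sided, p = 0.25, adjusted p = 0.295 over 13 pairs).

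Pairs of partners or paralogs were compared in this way within each library for 13 pairs of factors. With 4 libraries the smallest p that the exact permutation test can give is 0.125, so that no pair could pass 0.05. In 10 pairs 1 gene was higher in 4 of 4 libraries, with p = 0.125 and an adjusted p of 0.1625 (Benjamini-Hochberg over the 13 pairs, exact permutation test). The other 3 pairs, Nop56 with Nop58, Dkc1 with Gar1 and Polr1a with Polr1b, had both directions. Differences between genes depend on the exon length that the counts are divided by, and the pairs for which another length or no length turned the direction are given with their values.

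The box C/D snoRNP carries the methylation of ribosomal RNA. Its core proteins Nop56 (chromosome 2, 130274430 to 130279313) and Nop58 (chromosome 1, 59684971 to 59719044) form the scaffold and Fbl, fibrillarin, is the methyltransferase. Nop56 had 273, 158, 267 and 210 TPM, a mean of 227 ± 53.8 TPM. Nop58 had 197, 189, 185 and 196 TPM, a mean of 192 ± 5.68 TPM. Fbl had 95.8, 77.7, 87.2 and 89.6 TPM, a mean of 87.6 ± 7.50 TPM. Nop56 spread widely, with replicates 1 and 3 high and replicate 2 low, while Nop58, its partner in the particle, lay within 185 to 197 TPM. Fbl stood below Nop56 in 4 of 4 libraries, with a difference of -1.33 ± 0.27 on the log2(TPM + 1) scale. Nop56 exceeded Nop58 in 3 of 4 libraries, by 0.21 ± 0.36, which did not exceed the spread (exact permutation test, p = 0.375, adjusted p = 0.406). With the length of the principal transcript in place of all exons, the mean of Nop58 was 858 TPM, that of Nop56 352 TPM and that of Fbl 219 TPM, and Nop56 then lay below Nop58, with a difference of -1.31. The order of Nop56 and Nop58 thus changed with the length used.

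In the box H/ACA snoRNP, which carries pseudouridylation, Dkc1 (chromosome X, 75095854 to 75109777) is the pseudouridine synthase dyskerin and Nhp2, Nop10 and Gar1 are its partners. Nhp2 (chromosome 11, 51619735 to 51623714) had 127, 113, 97.7 and 155 TPM, a mean of 123 ± 24.4 TPM. Nop10 had 104, 121, 83.9 and 123 TPM, a mean of 108 ± 18.1 TPM. For both, replicate 3 was the lowest and replicate 4 the highest library. Dkc1 had 78.0, 60.8, 65.1 and 76.8 TPM, a mean of 70.2 ± 8.56 TPM, and its values did not follow those of Xist or Ddx3y. Gar1 had 69.4, 57.1, 73.1 and 79.0 TPM, a mean of 69.7 ± 9.29 TPM. Dkc1 and Gar1 could not be told apart: the difference was 0.01 ± 0.15 on the log2(TPM + 1) scale, with Dkc1 higher in 2 of 4 libraries (exact permutation test, p = 0.875). Dkc1 was below Nhp2 by a log2 difference of -0.79 ± 0.19 and below Nop10 by -0.60 ± 0.29, each in 4 of 4 libraries. Without division by length these became 1.03 and 1.26, since Dkc1 is the longer gene.

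With union exon lengths, the abundant nucleolar proteins were the 5 highest of the 45 factors. With the principal transcript, Nop58 (858 TPM) lay above all of them but Npm1, and Nop56 (352 TPM), Rrp1 (349 TPM) and Ppan (270 TPM) lay above Nolc1 (229 TPM). Npm1, nucleophosmin (chromosome 11, 33152287 to 33163206), had 1089, 907, 885 and 1150.0 TPM, a mean of 1008 ± 132 TPM. Ncl, nucleolin (chromosome 1, 86344719 to 86359400), had 537, 437, 428 and 558 TPM, a mean of 490.1 ± 66.7 TPM. Ddx21, an RNA helicase, had 577, 464, 453 and 596 TPM, a mean of 523 ± 74.5 TPM. All 3 had the same order of libraries, with replicate 4 highest and replicate 3 lowest. The difference between Ncl and Npm1 was -1.04 ± 0.01 on the log2(TPM + 1) scale, the smallest spread of the 13 pairs, and it was 0.89 without division by length. Gnl3, nucleostemin (chromosome 14, 31012434 to 31019089), had another order, with 526, 330.1, 513 and 411 TPM and a mean of 445 ± 92.2 TPM. Nolc1, a chaperone of snoRNPs, had 371, 257, 317 and 343 TPM, a mean of 322 ± 48.6 TPM. Replicate 2 was the lowest for Gnl3 and Nolc1.

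The PeBoW complex, which works on the large subunit, consists of Pes1, Bop1 and Wdr12. Pes1 (chromosome 11, 3963975 to 3980004) had 158, 114, 122 and 147 TPM, a mean of 135 ± 20.7 TPM. Bop1 had 119, 88.8, 115 and 111 TPM, a mean of 109 ± 13.6 TPM. Wdr12 (chromosome 1, 60069785 to 60098645) had 5.50, 4.08, 4.75 and 5.64 TPM, a mean of 4.99 ± 0.724 TPM, the lowest of all 45. The levels of the 3 partners were thus unequal at the RNA level. Pes1 was 22.7-fold above Wdr12 on the log2(TPM + 1) scale, a difference of 4.50 ± 0.08 in 4 of 4 libraries, and above Bop1 by 0.31 ± 0.16. The exon length of Wdr12 in the tables is 11955 bases and that of Pes1 3024 bases, so the counts of the 2 genes differ less than their TPM: 2238 for Wdr12 and 15463 for Pes1 over all libraries.

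The small subunit processome assembles on the nascent precursor RNA. Its 11 factors ranged from 25.5 TPM for Utp20 to 215 TPM for Wdr43. With the principal transcript, Utp4 (189 TPM) and Rrp9 (154 TPM) lay at or above Wdr43 (153 TPM). Wdr43 (chromosome 17, 71616215 to 71659031) had 252, 165, 206 and 238 TPM, a mean of 215 ± 38.4 TPM. Utp4 had 198, 132, 178 and 179 TPM, a mean of 172 ± 27.9 TPM. Utp15 had 99.1, 76.8, 84.4 and 91.3 TPM, a mean of 87.9 ± 9.55 TPM. In these genes, which encode members of the early UtpA group of the processome, replicate 1 was the highest library and replicate 2 the lowest. Wdr75, of the same group, had 64.9, 41.2, 53.9 and 57.0 TPM, a mean of 54.2 ± 9.85 TPM. Wdr43 lay above Wdr75 by 1.97 ± 0.06 and Utp4 above Utp15 by 0.95 ± 0.12 on the log2(TPM + 1) scale, each in 4 of 4 libraries. Utp20 had 24.8, 22.4, 30.4 and 24.4 TPM, a mean of 25.5 ± 3.43 TPM, and was highest in replicate 3. Bms1, a GTPase of the processome, had 69.6, 54.6, 69.5 and 70.0 TPM, with only replicate 2 apart. The remaining 5, Nop14, Rrp9, Ddx10, Heatr1 and Utp18, had means of 77.4 to 135 TPM.

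Among the factors of late small subunit maturation, Tsr1 stood highest and Nob1, the endonuclease that makes the final cut of the small subunit RNA, lowest with union exon lengths. Tsr1 had 296, 214, 238 and 270.1 TPM, a mean of 254 ± 35.9 TPM. Nob1 had 83.5, 57.6, 74.5 and 73.6 TPM, a mean of 72.3 ± 10.8 TPM. Replicate 1 was the highest and replicate 2 the lowest for both. Rrp12, which takes part in export and maturation, had 82.3, 67.4, 78.6 and 75.4 TPM, a mean of 75.9 ± 6.35 TPM. Ltv1 had a mean of 153 ± 7.22 TPM. With the principal transcript, Nob1 had 108 TPM and Rrp12, at 53.7 TPM, was the lowest.

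The 11 factors of large subunit assembly ran from 6.73 TPM for Wdr74 to 308 TPM for Gtpbp4. Gtpbp4, a nucleolar GTPase, had 327, 292, 289 and 324 TPM, a mean of 308 ± 20.2 TPM. Wdr74 had 7.27, 5.65, 7.27 and 6.70 TPM, a mean of 6.73 ± 0.767 TPM. The principal transcript of Gtpbp4, taken from GENCODE M21, has 8783 bases, more than the 2977 exon bases over which fragments were counted. Division by that length gave 74.3 TPM, a value that mixes 2 gene models and does not show where Gtpbp4 ranks. Rrp1, at 349 TPM, was the highest of this role with principal transcripts, so the top place depends on the length used. Nop16 (chromosome 13, 54584185 to 54590090), a nucleolar protein of large subunit precursors, had 82.6, 47.8, 53.0 and 88.4 TPM, a mean of 68.0 ± 20.5 TPM. Replicates 1 and 4 of Nop16 lay high and replicates 2 and 3 low, with a wide gap between them. Nop2, a methyltransferase of large subunit RNA, had 165, 96.0, 133 and 151 TPM, a mean of 136 ± 30.0 TPM. The paralogs Rrp1 and Rrp1b differed in level and in spread. Rrp1 (chromosome 10, 78400384 to 78413043) had 299, 271, 294 and 305 TPM, a mean of 292 ± 14.8 TPM. Rrp1b (chromosome 17, 32036100 to 32062865) had 35.9, 20.2, 30.7 and 30.4 TPM, a mean of 29.3 ± 6.56 TPM. Rrp1 was 9.85-fold above its paralog on the log2(TPM + 1) scale, a difference of 3.30 ± 0.28 in 4 of 4 libraries. Rrs1, Ppan, Mrto4, Nip7 and Ebna1bp2 made up the rest, with means of 67.0 to 195 TPM.

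Which factors differed between the libraries by more than genes of like abundance was asked with the counts. Polr1b and Nop16 did. In edgeR's negative binomial model with trended dispersion and Benjamini-Hochberg adjustment over 11567 genes, 2 of 45 factors passed an adjusted p of 0.05, beside 0.813% of all genes tested. The adjusted p was 0.0389 for Polr1b and 0.0368 for Nop16. At an unadjusted p under 0.05 in the same model there were 6 of 45, beside 5.98% of all genes; the added ones were Nop2, Rrp1b, Nhp2 and Nop10. Both calls were close to the threshold. They were lost when libraries were scaled by total counts (adjusted p 0.0661 for Polr1b and 0.0987 for Nop16 in edgeR). Without replicate 1, 2 or 4 the adjusted p of Polr1b in edgeR was 0.461, 1.00 and 0.0653, and without replicate 3 it was 0.0028, while Nop16 passed in none of the 4 (0.0754 to 0.471).

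The width of a factor was taken as its highest minus its lowest log2 CPM over the libraries, where CPM is counts per library total of 1e6, scaled with edgeR's TMM factors. The widest were Polr1b at 1.15, Nop16 at 0.93 and Nhp2 at 0.86. The narrowest were Rrp1 at 0.24, Rrp12 at 0.25 and Fbl at 0.26. The median width was 0.49 over the 45 factors and 0.40 over all genes tested, and 0.32 over other protein coding genes of at least 20 TPM. Of the 45, 31 were wider than the median of all genes.

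**Figure D2:**
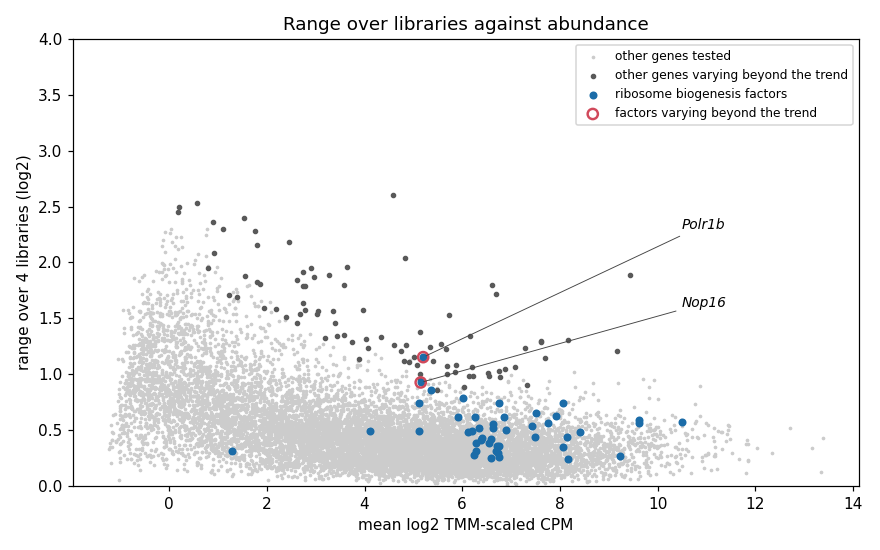
Range over the 4 libraries (log2 scale, highest minus lowest) against the mean log2 TMM-scaled CPM of each of the 11567 genes tested, 1 point per gene; 4 genes, none of them a factor, lie above the axis top of 4. The factors (blue) lie mainly between 0.24 and 0.86, and the ringed Polr1b and Nop16, at 1.15 and 0.93, are the 2 factors that passed the test.

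The libraries differed for the factors in 1 shared pattern, with replicates 1 and 4 high and replicates 2 and 3 low. On the log2 scale of TMM-scaled CPM, each value was set against the mean of its gene over the 4 libraries. In replicate 1, 42 of 45 factors lay above their mean, beside 51.6% of all genes, with a median of 0.16. In replicate 2, 40 lay below, beside 48.6%, with a median of -0.19. In replicate 3, 39 lay below, beside 50.6%, with a median of -0.13. In replicate 4, 42 lay above, beside 49.6%, with a median of 0.15. The medians over all genes tested were 0.01, 0.01, 0.00 and 0.00. Taken one by one, 43 of the 45 factors were not called as varying beyond the trend.

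**Figure D3:**
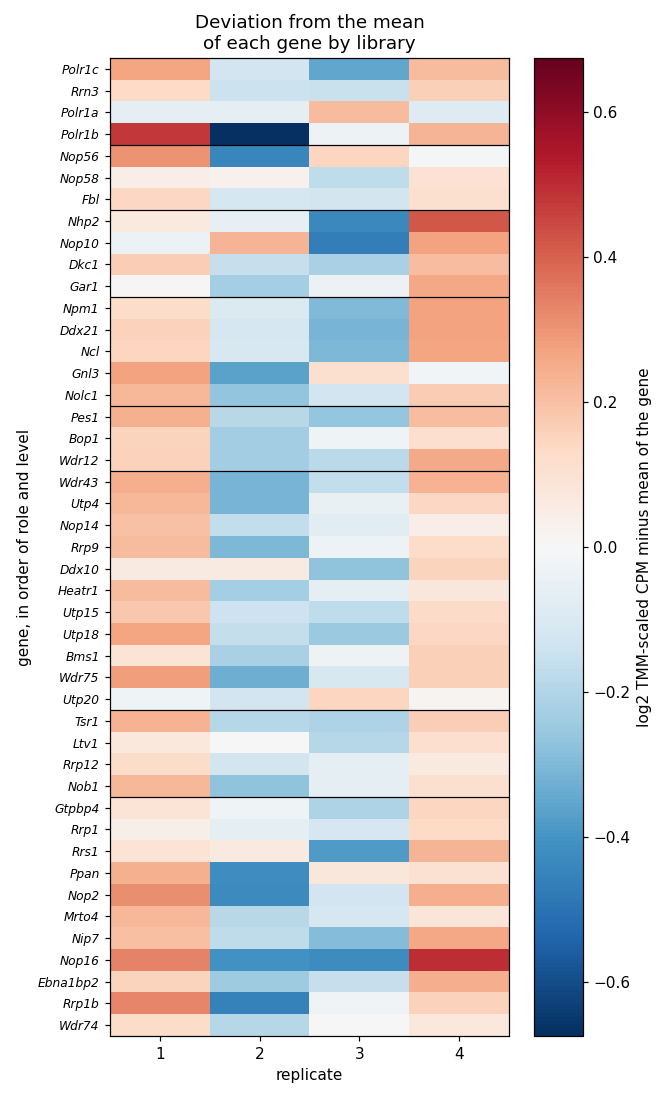
Log2 TMM-scaled CPM of each factor in each library minus its mean over the 4 libraries, as colour (red above, blue below), with factors in rows by role and libraries in columns. Columns 1 and 4 are mainly red and columns 2 and 3 mainly blue, with Polr1a, Nop56, Gnl3, Utp20 and Ppan above their mean in replicate 3 and Wdr74 level with its own.

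Replicates 1 and 4 were the 2 highest libraries of 40 of the 45 factors (88.9%), beside 20.7% of all genes tested and 27.1% of 5367 other protein coding genes of at least 20 TPM. The 5 exceptions were Nop56 and Gnl3, highest in replicates 1 and 3, Polr1a in 2 and 3, Nop10 in 2 and 4, and Utp20 in 3 and 4. The lowest library was replicate 2 for 23 factors, beside 24.6% of all genes, and replicate 3 for 21, beside 31.9%. The highest was replicate 1 for 24 factors and replicate 4 for 19, counts that have no share of all genes beside them. On the TPM scale the count fell to 30 of 45 (66.7%, against 14.2% of all genes), and the factors below their mean in replicate 3 to 25. The count below in replicate 3 therefore depends on the scale. In replicate 2 the count was 40 with TMM-scaled CPM and 42 with TPM. No share of all genes is given beside the TPM counts of 25 and 42, so they cannot be set against all genes on that scale. With total counts, 31 factors lay below in replicate 3, at a median of -0.07. All genes there had a median of 0.06, with 60.7% above their mean.

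Further ribosome biogenesis genes had the same pattern. Of 103 tested, 90 lay above their mean in replicate 1, 80 below in replicate 2, 79 below in replicate 3 and 89 above in replicate 4, with medians of 0.12, -0.14, -0.09 and 0.11 on the log2 CPM scale. Replicates 1 and 4 were the 2 highest for 65 of them (63.1%), beside 20.7% of all genes, so the pattern is not particular to the 45 factors. In edgeR 0 of the 103 varied at an adjusted p of 0.05, beside 0.813% of all genes, and 9 at an unadjusted p under 0.05, beside 5.98%. With DESeq2's size factors and trend 0 varied. The highest of these genes was Ddx24, an RNA helicase, at 589 TPM. In the subset of 12 further RNA polymerase I genes 6 had replicates 1 and 4 highest, in the 40 further small subunit genes 30, in the 40 further large subunit genes 24, and in the 11 exosome genes tested 5. Exosc6 had a count of 0 in every library, and Riok2 was not analysed here.

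Genes for the ribosomal proteins themselves had another order of libraries. Of 77 cytosolic ribosomal protein genes, 71 (92.2%) were highest in replicates 2 and 4, where 20.2% of all genes were, and 6 (7.79%) in replicates 1 and 4. Their median deviations were -0.02, 0.12, -0.27 and 0.17 on the log2 CPM scale in replicates 1 to 4. The factors and the ribosomal proteins thus stood on opposite sides of their means in replicate 2, at -0.19 and 0.12. Nop10 is the 1 factor that was highest in replicates 2 and 4, as the ribosomal proteins were. Of 77 mitochondrial ribosomal protein genes tested, 30 (39.0%) were highest in replicates 1 and 4 and 31 (40.3%) in replicates 2 and 4. No test of the difference between these lists was made.

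**Figure D4:**
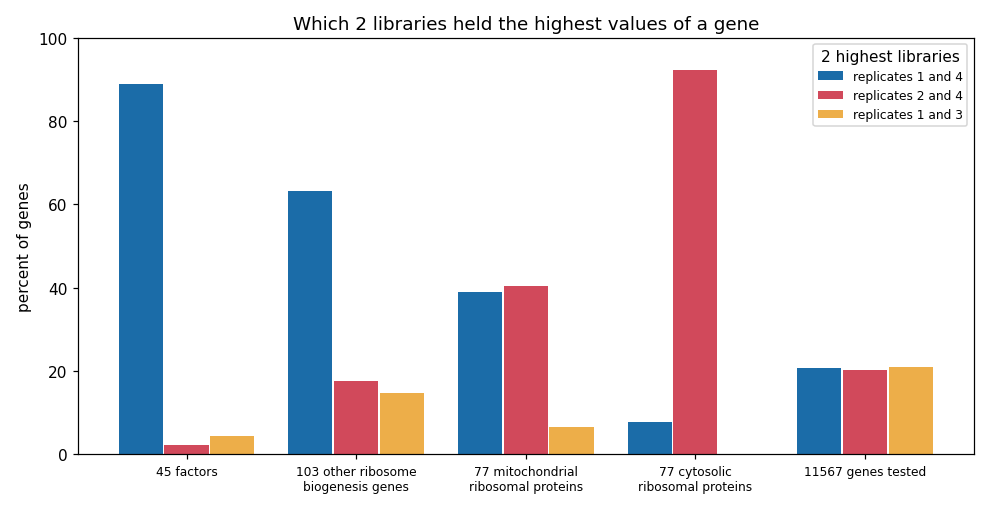
Percent of genes (axis from 0 to 100) whose 2 highest libraries on the TMM-scaled CPM scale were replicates 1 and 4 (blue), 2 and 4 (red) or 1 and 3 (yellow), for 5 sets of genes. The 45 factors reach 88.9% for replicates 1 and 4, the cytosolic ribosomal proteins 92.2% for replicates 2 and 4, and all genes tested lie near 20.7% for each pair.

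Other measures of the libraries are given beside this pattern. Myc stood at 1666, 1768, 1720.2 and 1609.8 TPM and did not have the order of the factors. Il2, the cytokine of activated T cells, had 21.9, 12.9, 14.2 and 43.5 TPM, and Il2ra, a chain of its receptor, had 95.8, 57.4, 65.6 and 118 TPM. Both were high in replicates 1 and 4, as the factors were, and varied beyond the trend in edgeR (adjusted p 7.3e-05 and 0.0055). Malat1, a nuclear RNA, had 427, 209, 795 and 188 TPM. The share of counts from cytosolic ribosomal proteins was 5.89%, 6.60%, 5.21% and 6.62%, and that from mitochondrially encoded genes 2.16%, 2.16%, 1.98% and 2.40%. Summed proliferation markers lay between 403 and 430 TPM, with Mki67 at 1.29 ± 0.218 TPM and Pcna at 365 TPM. Their part in the pattern of the factors was not tested. In bulk RNA, fewer cells with a transcript and less of it per cell cannot be told apart.

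Of the 45 factors, 8 are host genes of 23 snoRNAs in the annotation: Nop56, Nop58, Dkc1, Ncl, Gnl3, Wdr43, Tsr1 and Ppan. SnoRNAs are cut from introns of such hosts, and many of those listed guide the modification that the factors carry out. The 9 snoRNAs that overlap an exon model of the host had a count of 0 in every library, as fragments there are assigned to neither gene. Of the 14 within introns, 13 had counts, led by Snord69 in Gnl3 with 154, 113, 140 and 75 counts. Snord53 in Wdr43 had 160, 69, 107 and 64 counts, and Snord19 in Gnl3 123, 53, 80 and 36. Replicate 4, the library of least depth, was the lowest in raw counts for each of these. Scaled to a library total of 1e6, replicate 2 was their lowest instead, at 2.78 against 2.90 in replicate 4 for Snord69, 1.70 against 2.48 for Snord53 and 1.30 against 1.39 for Snord19. Replicates 1 and 3 were their highest, at 4.24 and 5.19 for Snord69, 4.41 and 3.97 for Snord53 and 3.39 and 2.97 for Snord19. This order did not hold for every snoRNA: Snord91a in Tsr1 stayed lowest in replicate 4, at 0.542 against 0.664 in replicate 2. For Snord69, Snord19 and Snord91a replicates 2 and 4 lay close, on counts as low as 14. Which of these libraries was the lowest is therefore uncertain. Of the 8 hosts 3 lay above their mean in replicate 3, Nop56, Gnl3 and Ppan, and of the 37 other factors 3 did, Polr1a, Utp20 and Wdr74.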

How the data were processed

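Fragment counts per gene in 4 libraries of Th17 cells were analysed. The authors deposited raw counts, made with featureCounts 1.4.6-p4 on GENCODE mouse M13 exons, per the file headers and the submitters' processing notes. Read pairs were counted with both ends mapped and reverse strandedness (option value 2), per the file headers. Fragments with several alignments, or over several genes, were not counted, since no option to do so is recorded there. The labels name mm10; the alignment file names carry the name of STAR (version not given in the sources used here). The assay title is total RNA-seq, while the linked library protocol is named for poly(A)+ RNA, per the labels' protocols.

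Depth was 36298276, 40652146, 26953724 and 25847970 counts in replicates 1 to 4; each factor had at least 307 counts over the 4 libraries. Pairs of libraries differed by a chi-square of 15.3 to 49.0 per degree of freedom, far over sampling noise, and each counted as 1 replicate. Of 50600 identifiers, 50376 matched a GENCODE M21 symbol. TPM was computed from counts and union exon lengths. Coordinates are the files' own.

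Variation was tested with edgeR 4.0.16 in R 4.3.3 (TMM, filterByExpr, 11567 genes, intercept only): each gene's deviance, with the dispersion set to the trend, was read against a chi-square distribution of 3 degrees of freedom, Benjamini-Hochberg adjusted, threshold 0.05. With 1 group there is no coefficient for a quasi-likelihood test. DESeq2 1.42.0 gave the alternative size factors and trend. Log2 CPM used a prior count of 2. The step was tested on simulated data. Pairs used an exact sign-flip permutation test on log2(TPM + 1). Principal transcript lengths came from M21, while the counts and union exon lengths came from M13 gene models. Shared 31-mers came from M21 transcripts, read on either strand. Other steps ran in Python 3.11.15 with pandas 2.3.3, scipy 1.17.1 and, for figures, matplotlib 3.10.9.

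All 45 factors are accounted for. Values in every library are given for the highest and lowest of each role, those called varying, the 3 widest and 3 narrowest, and members of the 13 pairs. Ddx21, Gnl3, Nop2 and Bms1, and Il2 and Il2ra beside them, were added after their values were seen. The factors and lists were chosen with earlier results of these data known. Alternatives were the normalization, dispersion, count filter, pseudocount, TPM denominator and left-out libraries. The shared promoter run, principal transcript length and the TPM scale for the library pattern were added after the data were seen.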

Additional observations from a re-analysis of the deposited data

Results flagged for a closer look

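For 2 of the 45 factors, 1 library stood so far from the other libraries that its gap to the nearest passed Dixon's limit at the 95% level, which chance passes in about 1 in 20 groups of 4. These are 4.44% of the factors, beside 4.88% of the 11567 genes tested, so the count is no result about the factors. Polr1a, the largest subunit of RNA polymerase I, reached 38.6 TPM in replicate 3, while the other libraries had 27.5 to 29.2 TPM, a gap of 0.853 of the range. Bms1, a GTPase of the small subunit processome, had 54.6 TPM in replicate 2, while the other libraries had 69.5 to 70.0 TPM, a gap of 0.968 of the range. Neither gene passed the test of variation between libraries in edgeR (adjusted p 1.00 for both).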

How the results depend on the processing

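The number of genes varying between libraries was 94, against 256 with a common dispersion, 35 to 60 when 1 library was left out, 21 in replicates 1 and 2 alone and 18 in replicates 3 and 4 alone. Of the factors, 2 varied; the count was 0 with total counts, with a common dispersion and with every gene of at least 1 count, 0 to 1 when 1 library was left out, 1 (Polr1b) in replicates 1 and 2 alone and 0 in replicates 3 and 4 alone. With DESeq2's size factors both stayed (adjusted p 0.0377 for Polr1b and 0.0360 for Nop16), as with its dispersion trend. The factors below their mean in replicate 3 numbered 39, against 31 with total counts, 25 with TPM and 30 to 43 when 1 library was left out. With total counts, 60.7% of all genes lay above their mean in replicate 3. The count with replicates 1 and 4 highest was 40, and 36, 39 and 30 with total counts, DESeq2's size factors and TPM. Of all genes, 20.7% had this pair highest in the main setting and 14.2% with TPM. No share of all genes is given for total counts or DESeq2's size factors. Log2 differences turned direction without division by length for Nop56 minus Nop58 (-1.18), Dkc1 minus Nhp2 (1.03), Dkc1 minus Nop10 (1.26) and Ncl minus Npm1 (0.89), and with principal transcript lengths for Nop56 minus Nop58 (-1.31); the length used is what these alternatives change. Dkc1 minus Gar1 ran from -0.039 to 0.071 when 1 library was left out, and was -0.039 and -0.013 without replicates 1 and 2. Principal lengths moved the mean of 35 of 45 factors by more than 1 SD, TPM over protein coding genes 5 and TPM without mitochondrially encoded genes 3. Principal lengths were used for all protein coding genes, so the TPM scaling changed with them. Wdr43 and Nolc1, whose own length stayed the same, each fell to 0.711 of their mean. No paired analysis was possible because there is 1 group. Wdr74 had the fewest counts, 307 in all, and fragments over the 90.7% of its exon bases that overlap another gene model were not counted.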
